A study of Mus musculus with 48 samples.

Results

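The comparison described here sets liver transcripts after a phase shift of the light schedule against those of control liver at zeitgeber time 16 (ZT16, the time label for 16 h after lights-on). It rests on 8 of the 48 libraries of the series, 4 labelled phase shift at ZT16 and 4 labelled control at ZT16, chosen by their labels alone. The phase shift libraries come from male wild-type C57BL/6 mice, 8 to 10 weeks old, after 1 advance of the light-dark cycle by 6 h, a model of jet lag. Control libraries come from male wild-type C57BL/6 mice of the same age on a stable 12:12 light-dark cycle. Livers were collected at 4 h intervals between day 6 and day 7 after the shift. Because the treatment field is identical for both arms, sample titles decided which arm a library belongs to. It is not said in the labels from which lights-on ZT was counted after the shift, nor that libraries with different numbers come from different animals. SEs and p-values therefore measure a spread between libraries. Unless a fit of the 8 libraries is named, that spread was estimated over all 48 libraries. An SE can thus differ from the scatter of the 8 values printed beside it. Of the 54532 genes in the deposited table, 14555 passed the filter on low counts and were tested.

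The mammalian clock is a feedback loop in which the activators CLOCK and BMAL1 (gene symbol Arntl) bind E-box sequences and switch on the period and cryptochrome genes, whose proteins then silence the activators. The nuclear receptors REV-ERB (Nr1d1, Nr1d2) and ROR (such as Rora) set the level of Arntl in a second loop. In mouse liver the loop runs beside a daily rhythm of feeding: nocturnal mice eat mostly in the dark, when insulin favours the synthesis of fatty acids and sterols, and fast in the light, when gluconeogenesis and fat breakdown prevail. ZT16 lies in the early dark period of a 12:12 cycle.

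Promoter sequences of 4 genes that carry much of the description below are shown first, because each holds a textbook binding motif of the pathway its gene stands for. They are from RefSeq, build GRCm38.p6, the assembly behind mm10, and run 5′ to 3′ on the strand of the gene from 250 bases before to 50 after the start of the transcript. Capitals mark the motif. Ciart lies at chr3:95882179-95882478 (minus strand), and its capitals are 3 E-boxes (CACGTG) that begin 116, 58 and 44 bases before the start. Per1 lies at chr11:69098699-69098998 (plus strand, 1 of 2 promoters listed), with 1 E-box 166 bases before the start. Pck1 lies at chr2:173152823-173153122 (plus strand), with the cAMP response element TGACGTAA, here on the reverse strand, 93 bases before the start. Hmgcs1 lies at chr13:119690101-119690400 (plus strand), with the sterol regulatory element TCACNCCAC 137 bases before the start.
Ciart: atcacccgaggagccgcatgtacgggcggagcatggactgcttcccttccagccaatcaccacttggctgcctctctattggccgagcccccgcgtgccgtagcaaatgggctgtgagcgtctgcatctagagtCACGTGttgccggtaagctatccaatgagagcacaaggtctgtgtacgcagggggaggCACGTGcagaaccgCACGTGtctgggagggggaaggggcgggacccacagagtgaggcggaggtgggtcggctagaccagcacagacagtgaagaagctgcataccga
Per1: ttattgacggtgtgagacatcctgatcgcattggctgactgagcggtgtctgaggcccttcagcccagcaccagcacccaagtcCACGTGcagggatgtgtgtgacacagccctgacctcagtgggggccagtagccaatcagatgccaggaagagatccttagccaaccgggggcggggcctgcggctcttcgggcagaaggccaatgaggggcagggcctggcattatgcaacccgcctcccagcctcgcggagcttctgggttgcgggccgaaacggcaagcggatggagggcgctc
Pck1: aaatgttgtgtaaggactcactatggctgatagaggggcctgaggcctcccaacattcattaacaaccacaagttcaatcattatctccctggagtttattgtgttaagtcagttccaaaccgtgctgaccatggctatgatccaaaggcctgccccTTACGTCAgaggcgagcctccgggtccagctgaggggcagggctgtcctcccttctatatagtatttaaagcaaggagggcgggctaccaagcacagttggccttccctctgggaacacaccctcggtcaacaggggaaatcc
Hmgcs1: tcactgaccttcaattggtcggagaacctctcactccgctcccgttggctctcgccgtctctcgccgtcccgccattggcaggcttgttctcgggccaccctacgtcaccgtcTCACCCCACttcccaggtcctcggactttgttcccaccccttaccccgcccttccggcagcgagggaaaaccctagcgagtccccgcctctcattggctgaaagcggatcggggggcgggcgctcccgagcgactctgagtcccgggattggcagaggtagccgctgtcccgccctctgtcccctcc

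Both strands were searched for these 3 motifs in all 32851 promoters of the table. The E-box was found in 7.15% of them, the cAMP response element in 0.499% and the sterol regulatory element in 1.24%. These shares are per promoter, whereas the list counts that follow are per gene, over all promoters listed for it, so the units differ. Among clock repressors, 4 of the 8 genes matched in the table held an E-box (Bhlhe41, Ciart, Cry1 and Per1). Pck1 was the 1 of 11 matched gluconeogenesis genes with the cAMP response element, and Hmgcs1 the 1 of 14 matched cholesterol genes with the sterol regulatory element. A match describes the letters in the window and is not evidence of binding.

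No gene passed the test at ZT16. With edgeR's quasi-likelihood test and Benjamini-Hochberg adjustment over all 14555 genes, 0 genes (0%) had an adjusted p under 0.05, and the smallest adjusted p was 0.32. At an unadjusted p under 0.05 there were 643 genes (4.42%), of which 320 (2.2%) lay above control and 323 (2.22%) below. DESeq2 and limma voom also gave 0 genes. A fit of the 8 ZT16 libraries alone gave 15 genes, 8 higher and 7 lower in phase shift livers, and these are named below where they occur. The groups of genes below are therefore given as values, with counts at an unadjusted p under 0.05 set against the 2.2% and 2.22% of all genes, and no single difference in them was called. In 711 genes (4.88%) the libraries of the arms did not overlap, with phase shift above in 373 (2.56%) and below in 338 (2.32%). The 12 higher and 12 lower genes named by rule were picked for a small p and for arms that do not overlap. Among them are Pck1, Pnpla2, Foxo1, Herpud1, Aacs, Sc5d and Avpr1a. The lack of overlap stated for these genes below was thus fixed by the choice and is not a result.

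The 8 libraries had similar depth, with totals of 16684003 to 17317854 counts. Mitochondrial transcripts took 5.71 to 7.52% of counts in phase shift libraries and 6.65 to 6.93% in control libraries (two-sided exact permutation p = 0.543; the smallest p possible is 0.0286). Hepatocyte markers, in keeping with the liver label, summed to 99080 to 109800 CPM (counts scaled to the TMM-adjusted library size) in phase shift libraries and 91870 to 116400 CPM in control libraries. Pancreas, gut and adipose markers (13 genes) summed to 52.55 to 82.35 CPM in phase shift and 55.16 to 77.59 CPM in control. Of these 13, the 4 pancreas markers Cpa1, Prss1, Amy2a5 and Try4 were at 0 in all 8 libraries. The pancreatic elastase genes Cela1 and Cela2a of the same list had counts and passed the filter. Their log2 differences were 0.19 (SE 0.30) and 0.11 (SE 0.66). Summed Kupffer cell markers (13 genes) ran from 199 to 635 CPM in phase shift and from 272 to 542 CPM in control, and sinusoidal endothelial markers (13 genes) from 192 to 564 CPM in phase shift and from 335 to 554 CPM in control. Phase shift replicate 1 was the lowest library for both, and over all genes it stood apart from its arm nearly as often as replicate 2. In bulk tissue, fewer cells of a type and less RNA per cell cannot be told apart. Phase shift replicate 2 stood apart from the other 3 libraries of its arm in many metabolic genes, and control replicate 1 from the other controls in sterol genes, so values without them are given where they matter.

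Clock repressors lay mostly above control in phase shift livers. Of the 10 members, 8 had a higher mean and 2 had an unadjusted p under 0.05 (both higher). In 5 of them the arms did not overlap (all above, against 2.56% of all genes). The median log2 difference was 0.37, against 0.01 over all genes tested. Per library, the median of the list relative to the mean of the 8 libraries was 0.13 to 0.38 on the log2 scale in phase shift livers and -0.25 to -0.09 in control livers, without overlap. Such medians did not overlap in several other lists either. For clock outputs the lowest phase shift value was 0.01 and the highest control value -0.09, and for immediate early genes 0.03 and -0.08. The nominal count was also 2 with each of the 8 libraries left out in turn.

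Ciart (ENSMUSG00000038550, mm10 chromosome 3, 95878503 to 95882251), which encodes a repressor of the CLOCK-BMAL1 complex also called CHRONO, measured 8.73, 8.43, 11.8 and 8.45 CPM in phase shift livers and 4.88, 3.22, 4.04 and 3.62 CPM in control livers. Every phase shift library lay above every control library. The log2 difference was 1.25 (SE 0.43, adjusted p = 0.94), and Ciart was among the 15 genes of the fit of the 8 libraries (adjusted p = 0.022). Nr1d1 (ENSMUSG00000020889, chromosome 11, 98767932 to 98775333), the REV-ERBα repressor of Arntl, measured 14.9, 20.7, 13.9 and 13.7 CPM in phase shift and 8.27, 8.06, 6.00 and 2.85 CPM in control. The arms again did not overlap (log2 difference 1.33, SE 0.46, adjusted p = 0.94). Per1, a period gene that also responds to hormones and cAMP, measured 27.0, 34.2, 29.2 and 25.0 CPM in phase shift and 12.0, 17.7, 21.6 and 19.8 CPM in control. Its log2 difference was 0.70 (SE 0.46, adjusted p = 1.00), and its lowest phase shift library lay above its highest control library.

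**Figure D1:**
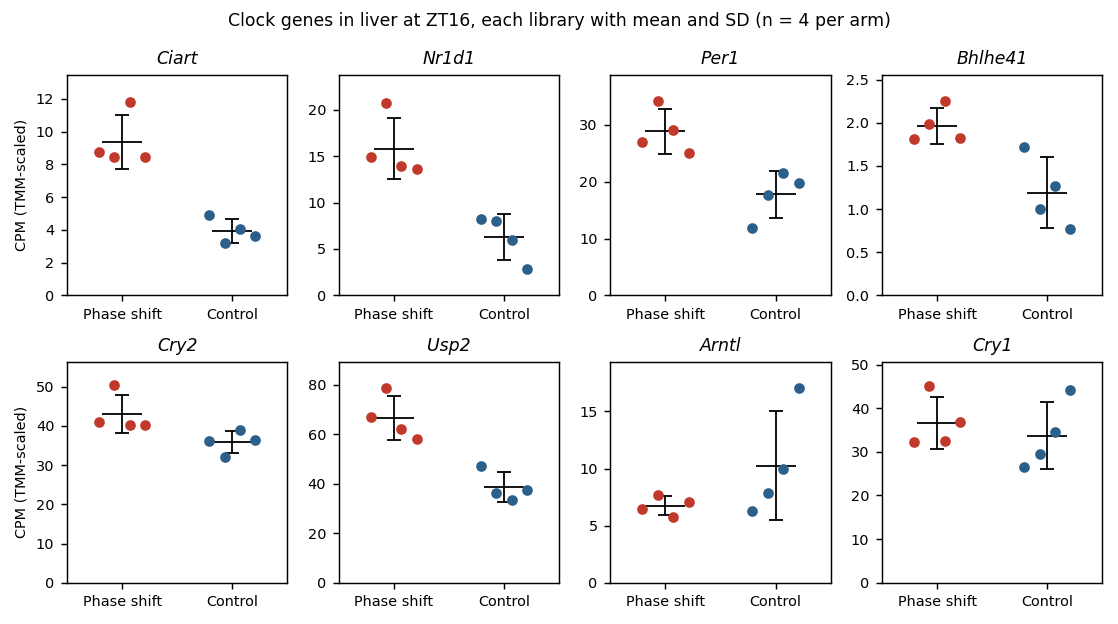
Clock genes at ZT16, in TMM-scaled CPM on the y axis, with 1 point per library and the mean and SD (n = 4 per arm); phase shift is on the left of each panel. Ciart, Nr1d1, Per1, Bhlhe41, Cry2 and Usp2 lay above control without overlap, while Arntl and Cry1 overlapped.

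Of the other repressors, Bhlhe41 (DEC2), an E-box competitor, measured 1.81 to 2.25 CPM in phase shift and 0.771 to 1.72 CPM in control, and Cry2, a cryptochrome, 40.1 to 50.3 CPM in phase shift and 32.1 to 38.9 CPM in control. Neither pair of arms overlapped, and the log2 differences were 0.72 (SE 0.50) and 0.26 (SE 0.15), both with an adjusted p of 1.00. Cry2 was highest in phase shift replicate 2. The remaining members overlapped: log2 differences were 0.44 (SE 0.31) for Nr1d2, 0.30 (SE 0.31) for Bhlhe40 (DEC1), 0.12 (SE 0.27) for Cry1, -0.02 (SE 0.30) for Per3 and -0.03 (SE 0.36) for Per2.

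Among the 6 clock activators tested, 2 lay above and 4 below control, 1 had an unadjusted p under 0.05 (lower), and the median log2 difference was -0.16. Arntl measured 6.44, 7.65, 5.72 and 7.10 CPM in phase shift livers and 6.26, 7.84, 9.92 and 17.0 CPM in control livers. The control libraries spread widely and 1 of them lay within the phase shift range, and the log2 difference was -0.61 (SE 0.29, unadjusted p = 0.044, adjusted p = 1.00). Clock, its partner, differed by -0.13 (SE 0.16), Rora by 0.06 (SE 0.16) and Arntl2, a paralogue of Arntl, by 0.39 (SE 0.60) on the log2 scale. Npas2, a paralogue of Clock, was at 0 to 0.117 CPM in phase shift and 0 to 0.115 CPM in control, under the 0.173 to 0.18 CPM that a count of 0 allows (3 counts per library), so no fold is given. The PAR bZIP factors Dbp, Tef and Hlf, which drive daily rhythms of metabolic genes, and their opponent Nfil3 had no member with an unadjusted p under 0.05. Their log2 differences were 0.52 (SE 0.43) for Dbp, 0.20 (SE 0.18) for Tef, 0.07 (SE 0.14) for Hlf and -0.08 (SE 0.30) for Nfil3, and Dbp spanned 17.8 to 33.0 CPM in phase shift and 9.37 to 27.6 CPM in control.

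Clock outputs, genes with strong daily rhythms in liver, had 15 of 22 members above control, with 7 higher and 1 lower at an unadjusted p under 0.05 and a median log2 difference of 0.25. Of the 7, Pnpla2 and Lpin1 are counted again in the lipid droplet list below, and Por in the conjugation list. Without phase shift replicate 2 the counts were 2 higher and 1 lower, and without control replicate 2 or control replicate 4 they were 4 higher and 1 lower. Usp2, a ubiquitin-specific protease chosen after its values were seen, measured 67.0, 78.9, 62.1 and 58.3 CPM in phase shift livers and 47.3, 36.3, 33.4 and 37.4 CPM in control livers. The arms did not overlap (log2 difference 0.79, SE 0.29, adjusted p = 0.99, and 0.034 in the fit of the 8 libraries). Avpr1a, a vasopressin receptor, had the opposite sign, with 14.9, 17.5, 15.5 and 21.4 CPM in phase shift and 29.5, 28.2, 27.6 and 39.4 CPM in control. All 4 phase shift libraries lay below all 4 controls, and the log2 difference was -0.85 (SE 0.25, adjusted p = 0.64, and 0.048 in the fit of the 8 libraries). Pim3, a kinase, and Por, the electron donor of microsomal cytochromes P450 and the highest member by FPKM, also lay above control without overlap, by 0.81 (SE 0.29) and 0.65 (SE 0.28).

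Ciart and Avpr1a, picked for their ZT16 differences, serve as examples of the course over the day. Ciart averaged 22.7 ± 5.45 CPM at ZT12, 9.36 ± 1.66 at ZT16 and 1.48 ± 0.906 at ZT20 in phase shift livers, and 19.5 ± 4.44, 3.94 ± 0.712 and 1.14 ± 0.361 CPM at these times in control livers (SD, n = 4 each). Avpr1a, which climbs through these hours, averaged 9.86 ± 0.905, 17.3 ± 2.93 and 46.1 ± 12.4 CPM in phase shift livers and 12.8 ± 5.44, 31.2 ± 5.55 and 46.2 ± 4.69 CPM in control livers. At ZT12 and ZT20 the arms differed by less than the larger SD in both genes.

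**Figure D2:**
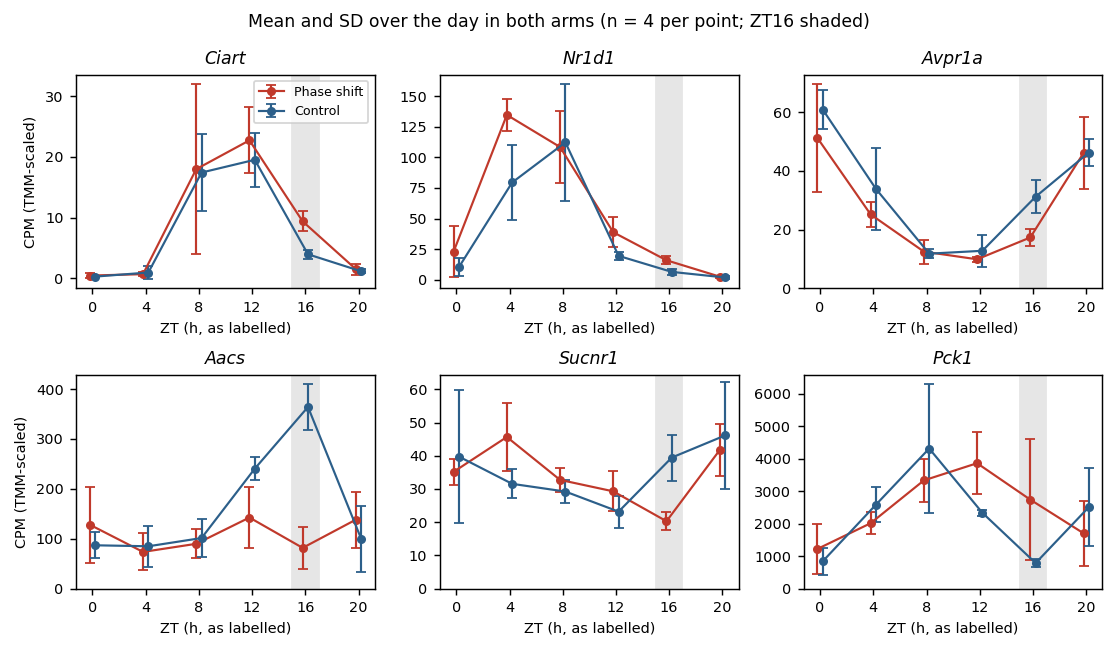
Mean and SD of TMM-scaled CPM (y axis, n = 4 per point) against labelled ZT in hours (x axis) for 6 genes in phase shift (red) and control (blue) livers, ZT16 shaded. At ZT16 phase shift livers averaged 9.36 CPM and control livers 3.94 CPM for Ciart, phase shift 81.6 and control 364 CPM for Aacs, and phase shift 2736 and control 784 CPM for Pck1.

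The course of control livers around ZT16 was described over all genes, with control libraries that the ZT16 comparison does not use. Control livers at ZT20 differed from control livers at ZT12 in 1836 genes (12.6%) by edgeR's test, with 905 (6.22%) higher and 931 (6.4%) lower at ZT20. Of the 931 genes lower at ZT20, 76.0% lay above control at ZT16 in phase shift livers, with a median log2 difference of 0.09. Of the 905 genes higher at ZT20, 67.2% lay below control at ZT16 in phase shift livers, with a median of -0.09. Across genes, the ZT16 difference and the control ZT20 minus ZT12 difference correlated by 0.12 in the 931 genes and -0.37 in the 905. The correlation was -0.19 over all genes tested. In the 931 genes a larger fall in control livers thus did not go with a larger positive ZT16 difference. Over all genes tested, 48.9% lay below control at ZT16 and the median was 0.01, and the sign was opposite to that of the control course in 59.9%. Genes are not independent replicates, so no test is attached to these shares.

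Cholesterol synthesis genes were the list with the largest share of nominal members among the lists described. All 22 tested members lay below control in phase shift livers, 13 of 22 (59.1%) with an unadjusted p under 0.05, against 2.22% of all genes in that direction, and the median log2 difference was -0.73. None of the 22 was called, and 2 did not overlap between arms. Without phase shift replicate 2 the nominal count was 5 and the median -0.62; without control replicate 1 these were 16 and -0.88, and without both 10 and -0.78. Nominal counts were 6 without control replicate 2 and 6 without control replicate 4. The members share a regulator, SREBP2, which switches them on when cell sterol is low, so they are not independent of each other.

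Hmgcs1 (ENSMUSG00000093930, chromosome 13, 119690379 to 119708260), an early enzyme of the pathway that makes HMG-CoA, measured 138, 78.6, 126 and 177 CPM in phase shift and 150, 441, 355 and 416 CPM in control, and control replicate 1 overlapped with the phase shift libraries, of which replicate 2 was the lowest (log2 difference -1.39, SE 0.49, adjusted p = 0.96). Sc5d, a late enzyme of the pathway, measured 425, 276, 379 and 413 CPM in phase shift and 472, 650, 672 and 692 CPM in control. It did not overlap (log2 difference -0.74, SE 0.22, adjusted p = 0.63).

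The other members pointed the same way with smaller or noisier differences. Pmvk, phosphomevalonate kinase, differed by -0.92 (SE 0.33), Sqle, squalene epoxidase, by -0.83 (SE 0.38), Fdft1, squalene synthase, by -0.76 (SE 0.32) and Insig1, which holds SREBP in the endoplasmic reticulum, by -0.70 (SE 0.34). Fdps, at 1.27 to 6.45 CPM in phase shift and 5.17 to 12.8 CPM in control, is uncertain because near-identical copies can split its reads. Pmvk, Hmgcs1 and Sc5d follow the rule for named genes, whereas Sqle, Fdft1, Insig1 and Fdps were chosen after their values were seen.

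**Figure D3:**
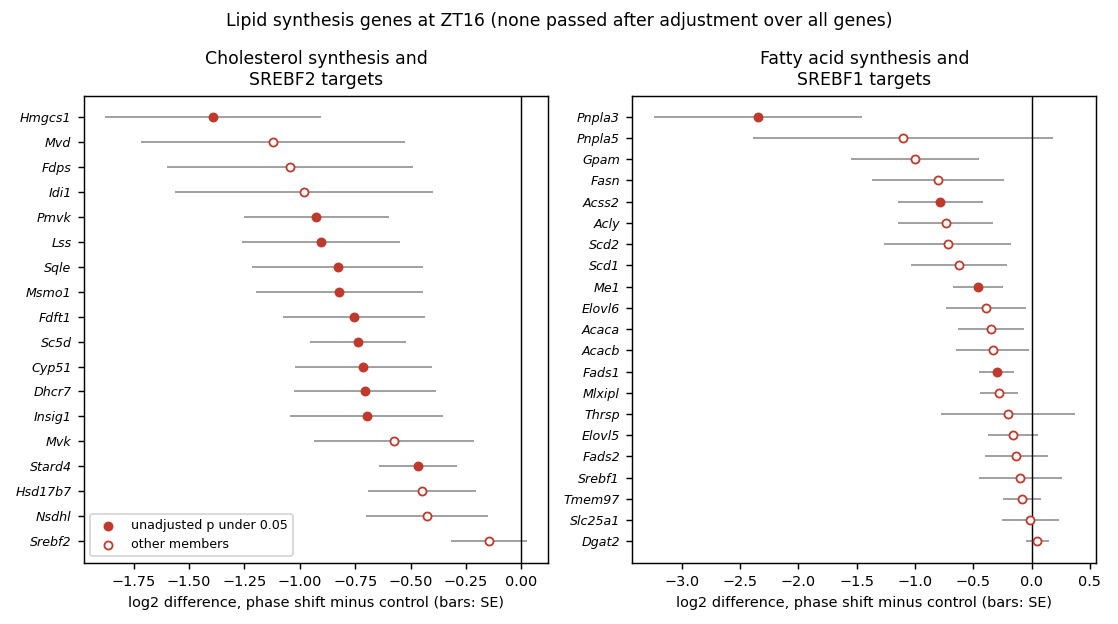
Log2 difference (x axis, phase shift minus control, bars are SE) of 18 of the 22 tested members of the cholesterol list (left) and all 21 of the fatty acid synthesis list (right) at ZT16. All 18 cholesterol members shown and 20 of the 21 fatty acid members lay left of 0, and filled points mark the 11 and 4 shown members with an unadjusted p under 0.05.

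Aacs (ENSMUSG00000029482, chromosome 5, 125475814 to 125517410), which turns acetoacetate into acetoacetyl-CoA for lipid synthesis in the cytosol, had the largest difference of the 12 lower genes named by rule except Chrna4. It measured 91.3, 25.4, 83.4 and 126 CPM in phase shift livers and 339, 351, 432 and 336 CPM in control livers. All phase shift libraries lay far below all controls, and the log2 difference was -2.16 (SE 0.53, adjusted p = 0.32). In control livers Aacs averaged 240 ± 22.6 CPM at ZT12 and 99.6 ± 66.8 CPM at ZT20, so the ZT16 level of 364 ± 45.6 CPM was its highest of the day there. Phase shift livers showed no such maximum at ZT16, with 142 ± 61.3, 81.6 ± 41.8 and 138 ± 56.1 CPM at ZT12, ZT16 and ZT20 (SD, n = 4 each). Acat2, a cytosolic acetyl-CoA acetyltransferase chosen after its values were seen, measured 58.3 to 82.2 CPM in phase shift and 99.8 to 136 CPM in control, without overlap (log2 difference -0.73, SE 0.29); a close copy, Acat3, can share its reads.

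Fatty acid synthesis genes had 20 of 21 members below control, 4 with an unadjusted p under 0.05, all lower, and a median log2 difference of -0.35. The 4 nominal members were Pnpla3, a lipase and acyltransferase (-2.35, SE 0.89), Acss2, acetyl-CoA synthetase (-0.78, SE 0.36), Me1, malic enzyme (-0.46, SE 0.21), and Fads1, a fatty acid desaturase (-0.30, SE 0.15). Acss2 measured 141, 148, 116 and 206 CPM in phase shift and 220, 240, 304 and 286 CPM in control, without overlap. Pnpla3 was at 0.12 to 0.528 CPM in phase shift and 0.172 to 2.61 CPM in control, so its fold rests on few counts. Scd1, stearoyl-CoA desaturase and the highest member by FPKM, spanned 2204 to 5755 CPM in phase shift and 4104 to 9155 CPM in control, with a difference of -0.62 (SE 0.41). The nominal count was 1 without control replicate 3 or control replicate 4, and 2 without control replicate 2 or phase shift replicate 2, 3 or 4.

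Fasn, Srebf1 and Acly, chosen after their values were seen, show how much a single library weighed. Fasn, fatty acid synthase, measured 1219, 245, 1311 and 1240 CPM in phase shift livers and 1445, 1869, 2036 and 1656 CPM in control livers. Phase shift replicate 2 stood at less than any other library, yet the other 3 also lay below the controls (log2 difference -0.80, SE 0.57, adjusted p = 1.00). Srebf1, its regulator, measured 533, 81.5, 648 and 641 CPM in phase shift and 628, 464, 489 and 455 CPM in control, so the other 3 phase shift libraries lay above at least 3 of the 4 controls and replicate 2 far below all (log2 difference -0.10, SE 0.35, and 0.25 without that library). Acly, ATP-citrate lyase, measured 221 to 410 CPM in phase shift and 380 to 685 CPM in control (-0.74, SE 0.40).

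Gluconeogenesis genes lay mostly above control: 11 of 13 members, with 2 higher and 1 lower at an unadjusted p under 0.05. Of the 13, 5 did not overlap (all above, against 2.56% of all genes), and the median log2 difference was 0.23. Per library, the list median relative to the mean of the 8 libraries was 0.08, 0.33, -0.04 and 0.03 in phase shift replicates 1 to 4. In control libraries it was -0.17 to -0.08. Pck1 (ENSMUSG00000027513, chromosome 2, 173153048 to 173159273), the enzyme that commits oxaloacetate to glucose synthesis, measured 2887, 5304, 1386 and 1365 CPM in phase shift livers and 656, 973, 778 and 728 CPM in control livers. The lowest phase shift library lay above the highest control, and replicate 2 was the highest. The log2 difference was 1.80 (SE 0.44, adjusted p = 0.32), and 1.26 without replicate 2. In control livers Pck1 averaged 2331 ± 87.4 CPM at ZT12 and 2506 ± 1192 CPM at ZT20, so 784 ± 136 CPM at ZT16 lay below both, whereas phase shift livers averaged 3858 ± 947, 2736 ± 1855 and 1702 ± 1002 CPM at ZT12, ZT16 and ZT20 (SD, n = 4 each). Foxo1, a transcription factor that insulin switches off, measured 34.3, 53.1, 28.3 and 36.7 CPM in phase shift and 25.9, 26.2, 24.2 and 27.5 CPM in control. It too did not overlap (0.55, SE 0.14, adjusted p = 0.32).

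Slc37a4, the glucose-6-phosphate transporter, lay above control without overlap (0.30, SE 0.16), whereas Mpc1, a subunit of the mitochondrial pyruvate carrier, was the nominal lower member (-0.33, SE 0.16). Tat, the highest member by FPKM, overlapped (0.13, SE 0.23), as did G6pc, the last enzyme of glucose release, chosen after its values were seen (0.24, SE 0.45). In the glycolysis and glycogen list, 2 members were higher and 1 lower at an unadjusted p under 0.05, with a median of 0.07. Tkfc, which phosphorylates triose from fructose, differed by 0.43 (SE 0.14). Ppp1r3c, a glycogen targeting subunit, differed by -0.50 (SE 0.32). Ppp1r3g was at or under the limit of a count of 0 in most libraries and at 5.06 CPM in phase shift replicate 2. Gapdh, at 2.47 to 5.36 CPM in phase shift and 2.02, 3.16, 47.9 and 77.3 CPM in control replicates 3, 1, 4 and 2, is uncertain because reads can be split among its many near-identical copies.

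Among the lists of fat breakdown, 24 of 28 members of the fatty acid oxidation list lay above control with a median of only 0.10, and 2 were higher and 1 lower at an unadjusted p under 0.05. Angptl4, an inhibitor of lipoprotein lipase that fasting induces, measured 61.2, 258, 50.3 and 41.2 CPM in phase shift and 32.0, 37.6, 35.7 and 35.7 CPM in control. The arms did not overlap, and replicate 2 lay far above the other 3 libraries of its arm (log2 difference 1.54, SE 0.49, adjusted p = 0.77, and 0.53 on the log2 scale without that library). Cpt1a, which admits fatty acids to mitochondria, lay above control without overlap (0.58, SE 0.27), and Pdk4, an inhibitor of pyruvate oxidation, below control without overlap (-1.21, SE 0.53). Fabp1, the fatty acid binding protein with the highest FPKM of the list, differed by -0.14 (SE 0.32). Without phase shift replicate 2 and control replicate 1 the list had 0 higher and 1 lower nominal member and a median of 0.00.

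In the lipid droplet list, 2 of 15 members were nominal, both higher, and 2 more genes of the list were not tested (Plin1 and Cidea). The nominal members, Pnpla2 and Lpin1, also belong to the clock outputs above, so the 2 lists are not separate results. Without phase shift replicate 2, 1 was nominal and the median of 0.16 became 0.04. Pnpla2, adipose triglyceride lipase, measured 96.0, 151, 82.4 and 76.4 CPM in phase shift livers and 68.1, 60.2, 56.0 and 51.6 CPM in control livers. It did not overlap (log2 difference 0.78, SE 0.19, adjusted p = 0.32). Lpin1, a phosphatidate phosphatase and coactivator, measured 132, 533, 48.1 and 92.1 CPM in phase shift and 50.9, 72.4, 57.9 and 59.7 CPM in control, so phase shift replicate 3 lay below all controls while replicate 2 lay far above them (1.74, SE 0.56, adjusted p = 0.77, and 0.59 without replicate 2). Plin5 differed by 0.30 (SE 0.19), Plin3 by -0.20 (SE 0.17) and G0s2, an inhibitor of PNPLA2, by 0.42 (SE 0.54).

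**Figure D4:**
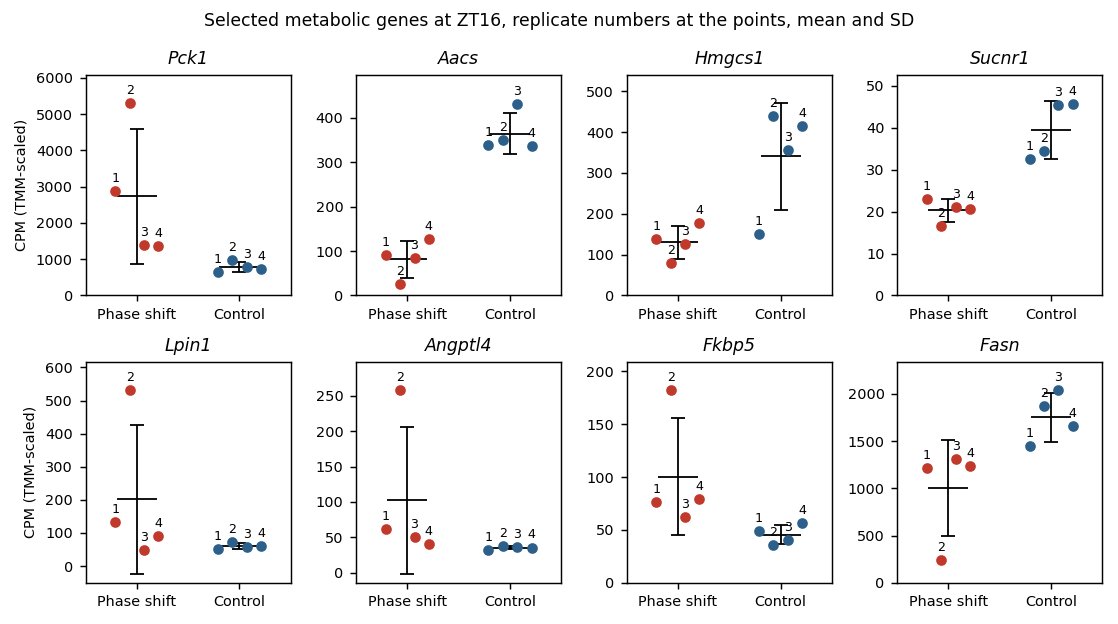
TMM-scaled CPM (y axis) of 8 metabolic genes in each library at ZT16, replicate numbers at the points, mean and SD (n = 4 per arm); phase shift is on the left. Phase shift replicate 2 was highest for Pck1 (5304 CPM), Lpin1 (533 CPM), Angptl4 (258 CPM) and Fkbp5 (183 CPM) and lowest for Aacs (25.4 CPM) and Fasn (245 CPM).

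In the urea cycle and arginine list 12 of 16 members lay above control, 2 nominally, with a median of 0.13. Asl, argininosuccinate lyase, measured 1245, 1269, 982 and 1196 CPM in phase shift livers and 966, 669, 863 and 870 CPM in control livers. The arms did not overlap (0.48, SE 0.16, adjusted p = 0.88). Slc7a2, an arginine transporter, overlapped (0.88, SE 0.34), as did Arg1, arginase (0.27, SE 0.14), and Ass1, argininosuccinate synthase (0.25, SE 0.18). Amino acid breakdown genes had 18 of 20 members above control but only 1 nominal, with a median of 0.15. That one was Got1, cytosolic aspartate aminotransferase, with 280, 709, 273 and 457 CPM in phase shift and 260, 138, 224 and 228 CPM in control, where replicate 2 was again the highest and the arms did not overlap (1.02, SE 0.30, adjusted p = 0.67). Agxt lay above control without overlap (0.35, SE 0.18), and Uroc1 (0.19, SE 0.10), Kynu (0.29, SE 0.19) and Hpd (0.15, SE 0.13) overlapped. Periportal hepatocyte markers, a list that shares Pck1, Asl and Ass1 with these, summed to 15340 to 23540 CPM in phase shift and 12790 to 16000 CPM in control; the part of liver zonation in these results was not tested.

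Serine, glycine and methionine genes had no common direction, with 13 of 21 above control and a median of 0.03. Sds, serine dehydratase, measured 157, 219, 116 and 159 CPM in phase shift and 136, 58.5, 81.9 and 68.9 CPM in control (0.92, SE 0.26, adjusted p = 0.53). Only control replicate 1 overlapped. Psph, which completes serine synthesis, lay below control without overlap, with 4.11 to 5.02 CPM in phase shift and 5.56 to 8.42 CPM in control (-0.57, SE 0.17, adjusted p = 0.67). Nnmt, which methylates nicotinamide, lay above control without overlap (0.52, SE 0.18, adjusted p = 0.96). Cbs (0.24, SE 0.16) and Gnmt (0.12, SE 0.19) overlapped.

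Glucocorticoid targets had 14 of 16 tested members above control, 4 nominally, with a median log2 difference of 0.51. Without phase shift replicate 2 no member was nominal and the median was 0.24, and 2 were nominal without control replicate 1, 2 or 3. Fkbp5, a cochaperone of the glucocorticoid receptor, measured 76.8, 183, 62.2 and 79.5 CPM in phase shift livers and 49.2, 36.1, 40.1 and 56.3 CPM in control livers. The arms did not overlap (1.14, SE 0.39, adjusted p = 0.90). Zbtb16 (1.80, SE 0.65, and 0.92 without replicate 2) and Mt1, metallothionein (1.62, SE 0.79), overlapped, and Mt1 was at 109 CPM in phase shift replicate 2 against 7.56 to 10.2 CPM in the other 3 and 4.17 to 19.3 CPM in control, so its difference was -0.31 without that library. Gadd45g, a stress sensor, did not overlap (2.00, SE 0.98, and 1.02 without replicate 2), with 51.5 CPM in replicate 2 and 9.03 to 13.5 CPM in the other 3 phase shift libraries, against 4.34 to 6.03 CPM in control.

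Immediate early genes had 16 of 18 members above control, 3 nominally (Fos, Klf10 and Ier2), with a median of 0.31. Klf10, which TGF-β and glucose induce, measured 12.5, 18.2, 14.3 and 15.5 CPM in phase shift and 8.22, 5.78, 6.58 and 7.82 CPM in control. The arms did not overlap (1.09, SE 0.40, adjusted p = 0.99, and 0.022 in the fit of the 8 libraries). Ier2 also did not overlap (0.53, SE 0.23), and Junb (0.82, SE 0.43) and Jund (0.15, SE 0.43) overlapped. Csrnp1, an early gene outside the list that was chosen after its values were seen, measured 16.0 to 18.1 CPM in phase shift and 4.56 to 9.56 CPM in control (1.24, SE 0.42, and adjusted p = 0.037 in the fit of the 8 libraries).

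Acute phase genes had 18 of 20 members above control, 4 nominally, with a median of 0.28. Phase shift replicate 4 was the highest library, and without it no member was nominal and the median was 0.10; without control replicate 2 none was nominal either and the median was 0.18. The nominal count was 1 without control replicate 1, 3 or 4 and 2 without phase shift replicate 1. Socs3, the feedback inhibitor of interleukin-6 signalling, measured 17.4, 15.8, 10.5 and 14.3 CPM in phase shift livers and 7.93, 5.11, 7.73 and 5.39 CPM in control livers. It did not overlap (1.14, SE 0.55, adjusted p = 1.00, and 0.037 in the fit of the 8 libraries). Hp, haptoglobin, lay above control without overlap (0.35, SE 0.16). Saa1, which shares reads with its near copy Saa2, at 169 CPM in phase shift replicate 4 and 39.6 to 65.5 CPM in the other 3 against 35.5 to 43.0 CPM in control, differed by 1.08 (SE 0.52) and by 0.46 without that library, Saa4 by 0.41 (SE 0.20) and Hpx, hemopexin, by 0.14 (SE 0.12). Neutrophil and monocyte markers (10 genes, Ly6g at 0) summed to 2.41 to 4.56 CPM in phase shift and 4.62 to 5.71 CPM in control, and Kupffer markers overlapped between arms; the part of these cells in the acute phase values was not tested.

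The unfolded protein response list had 16 of 25 members above control, 2 nominally, with a median of 0.09, which was -0.07 without phase shift replicate 3. Herpud1, which serves the degradation of misfolded proteins at the endoplasmic reticulum, measured 569, 628, 470 and 358 CPM in phase shift and 256, 228, 311 and 222 CPM in control. All phase shift libraries lay above all controls (0.99, SE 0.25, adjusted p = 0.32). Creb3l3, a liver transcription factor of the endoplasmic reticulum, did not overlap either (0.25, SE 0.11), whereas Dnajb9 (0.51, SE 0.32), Atf4 (-0.38, SE 0.26) and Hspa5 (BiP, 0.10, SE 0.34) did. Of the heat shock genes, 15 of 20 lay below control, with 1 lower and 1 higher nominally and a median of -0.12. Hspa4l measured 41.7 to 60.4 CPM in phase shift and 63.6 to 96.7 CPM in control (-0.71, SE 0.24), and Hsp90aa1 327 to 482 CPM in phase shift and 530 to 845 CPM in control (-0.63, SE 0.33), both without overlap. Hspa1a, which has a near-identical copy in Hspa1b and is uncertain, had the opposite sign at low level, with 1.85 to 4.64 CPM in phase shift and 0.474 to 1.26 CPM in control (1.58, SE 0.63). Hspb1 (-0.67, SE 0.33) and Hspa8 (-0.11, SE 0.31) overlapped.

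Conjugation and xenobiotic receptor genes had 18 of 25 members below control, 3 lower and 1 higher nominally, with a median of -0.14. The higher one was Por, and the lower ones were Gsta3, a glutathione transferase (-0.32, SE 0.14), Inmt (-0.37, SE 0.17) and Ugt2b35 (-0.33, SE 0.15). Ugt2b35, a glucuronosyltransferase with near-identical relatives that can share reads, measured 145 to 221 CPM in phase shift and 222 to 268 CPM in control. Sphingolipid and phospholipid genes had a median of -0.01, with 1 higher and 3 lower nominally. Etnppl, which breaks down phosphoethanolamine, measured 320, 331, 354 and 373 CPM in phase shift and 245, 169, 241 and 216 CPM in control, without overlap (0.66, SE 0.21, adjusted p = 0.72, and 0.048 in the fit of the 8 libraries). Asah1, acid ceramidase (-0.28, SE 0.13), did not overlap either, and Sgpl1 (-0.29, SE 0.12), Sptlc2 (-0.30, SE 0.14) and Pemt (-0.01, SE 0.15) did.

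**Figure D5:**
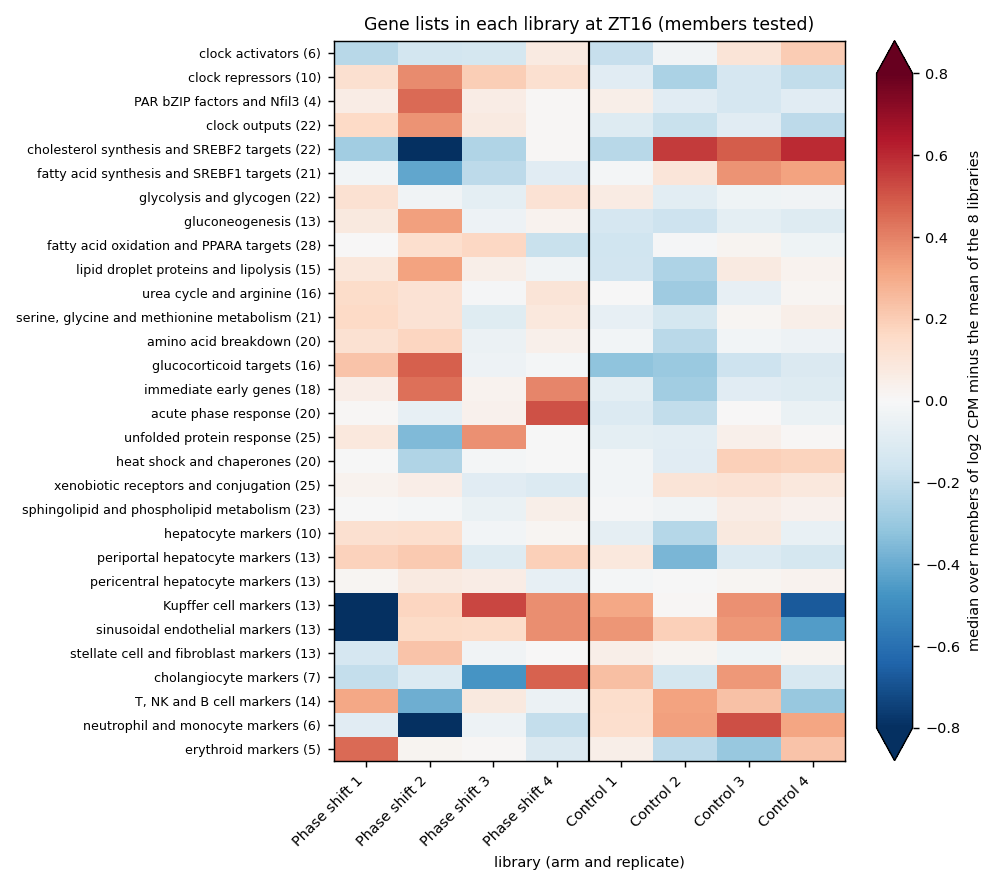
Median over the tested members of log2 CPM minus the mean of the 8 libraries (colour), for gene lists (rows, members tested in parentheses) in each library (columns, phase shift left of control). The cholesterol row reads -0.28, -0.80, -0.24 and 0.01 in phase shift replicates 1 to 4 and -0.22, 0.56, 0.48 and 0.60 in control replicates 1 to 4. Clock repressors separate the arms, as do several other rows, among them clock outputs, gluconeogenesis, glucocorticoid targets and immediate early genes. Neutrophil and monocyte markers separate them in the opposite direction.

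By the rule for named genes, 12 higher and 12 lower protein coding genes without overlap between arms are given, of which Pck1, Pnpla2, Foxo1, Herpud1, Aacs, Sc5d and Avpr1a are described above. Shb (ENSMUSG00000044813, chromosome 4, 45423278 to 45532470), an adaptor protein of receptor tyrosine kinases, measured 80.5, 87.4, 78.9 and 71.4 CPM in phase shift livers and 47.2, 44.7, 49.2 and 51.7 CPM in control livers. Both arms were tight (0.72, SE 0.16, adjusted p = 0.32, and 0.013 in the fit of the 8 libraries). Lbp, the lipopolysaccharide binding protein, measured 55.1, 93.3, 65.4 and 93.1 CPM in phase shift and 49.8, 46.8, 47.1 and 45.7 CPM in control (0.70, SE 0.17, adjusted p = 0.32). The controls were tight and the phase shift libraries spread upward. C2cd2l, a lipid transfer protein at membrane contacts, differed by 0.64 (SE 0.18, adjusted p = 0.53, and 0.026 in the fit of the 8 libraries), Setd1b, a histone methyltransferase, by 0.60 (SE 0.16), Map3k21 by 0.70 (SE 0.19), Klhl21 by 0.77 (SE 0.21), Mul1, a mitochondrial ubiquitin ligase, by 0.34 (SE 0.09), and 2510039O18Rik by 0.45 (SE 0.10). Klhl21 was at 76.6 CPM in phase shift replicate 2 and 31.7 to 40.6 CPM in the other 3, against 23.1 to 30.4 CPM in control.

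On the lower side, Sucnr1 (ENSMUSG00000027762, chromosome 3, 60081869 to 60087566), the receptor for succinate, measured 22.9, 16.5, 21.0 and 20.6 CPM in phase shift livers and 32.5, 34.5, 45.3 and 45.5 CPM in control livers. The arms were well apart (-0.96, SE 0.23, adjusted p = 0.32, and 0.022 in the fit of the 8 libraries). Chrna4, a nicotinic receptor subunit, had the largest difference of the 12 lower genes, with 3.37, 1.02, 1.91 and 1.06 CPM in phase shift and 3.45, 11.7, 25.6 and 19.0 CPM in control (-3.02, SE 0.89, adjusted p = 0.64). Control replicate 1 lay just above the phase shift range. The others were Etl4 (-0.93, SE 0.24, adjusted p = 0.32, and 0.037 in the fit of the 8 libraries), Birc3, an inhibitor of apoptosis (-0.59, SE 0.15), Nr3c2, the mineralocorticoid receptor (-0.62, SE 0.17), Rassf6 (-0.88, SE 0.24), Daam1 (-0.50, SE 0.14), Cgn, the tight junction protein cingulin (-0.57, SE 0.17, and adjusted p = 0.034 in the fit of the 8 libraries), and Pde4b, a cAMP phosphodiesterase (-0.99, SE 0.30). Cgn measured 24.9 to 26.9 CPM in phase shift and 35.8 to 41.0 CPM in control.

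The fit of the 8 libraries called 3 further genes on the lower side, all chosen after their values were seen. Aqp8, a water channel of the bile canaliculus, measured 39.7, 30.8, 37.4 and 38.2 CPM in phase shift and 64.2, 81.7, 92.8 and 109 CPM in control (-1.25, SE 0.40, adjusted p = 0.77 over 48 libraries and 0.013 in the 8). Cldn1, the tight junction protein claudin-1, measured 42.0 to 52.1 CPM in phase shift and 66.4 to 85.5 CPM in control (-0.65, SE 0.20, adjusted p = 0.70 and 0.034). Adh4, an alcohol dehydrogenase, measured 83.7 to 107 CPM in phase shift and 130 to 147 CPM in control (-0.56, SE 0.17, adjusted p = 0.71 and 0.037). None of these 3 overlapped between arms. Both Aqp8 and Cldn1 are genes that control livers had higher at ZT20 than at ZT12, by 1.85 and 2.48 on the log2 scale. Lower genes did not all share this course. Among the 12 lower genes named by rule, the same control difference ran from -1.27 for Aacs, through -0.03 for Nr3c2, to 2.89 for Chrna4.

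Whether a difference was particular to ZT16 was tested as the ZT16 difference minus the mean difference at the other 5 times. No gene passed (0%), 547 (3.76%) had an unadjusted p under 0.05, and the smallest adjusted p was 0.10, for Apbb1. Apbb1, which encodes an adaptor of the amyloid precursor protein, measured 0.783, 1.08, 0.808 and 0.880 CPM in phase shift and 0.230, 0.167, 0.173 and 0.296 CPM in control, near the limit of a count of 0. Its ZT16 difference exceeded the mean of the other times by 2.40 (SE 0.47) on the log2 scale. Next came Cdip1 by 0.85, Fos by 2.95, Sucnr1 by -1.10 and 1810008I18Rik by -1.40, each with an adjusted p of 0.21. Sucnr1 had log2 differences of -0.18, 0.53, 0.16, 0.34, -0.96 and -0.14 from ZT0 to ZT20, so its ZT16 difference was the largest in size of the 6 times. Fos, an immediate early factor, was at 0.577 to 3.01 CPM in phase shift and 0.356 to 0.556 CPM in control at ZT16, while its control mean at ZT0 was 4.88 ± 5.00 CPM (SD, n = 4).

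The ZT16 contrast was among the times with the fewest calls. The same fit called 0 genes at ZT0, 17 at ZT4, 19 at ZT8, 0 at ZT12 and 43 at ZT20, with 7.37%, 9.21%, 11.7%, 4.98% and 7.33% of genes at an unadjusted p under 0.05, against 4.42% at ZT16. Across genes, the ZT16 difference had a correlation of -0.07 to 0.10 with the differences at the other times, which share no library with it.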

How the data were processed

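Liver RNA was measured by RNA sequencing in 48 libraries, of which the 8 at ZT16 enter the comparison. Per the labels, sequencing, mapping and quantification were done by a company, and the submitters' processing notes name genome build mm10; the aligner and counter were not found in these sources. The authors deposited a table of raw counts per gene and a table of FPKM values. Computed from the tables, FPKM was the count over gene length and over 1 library factor (largest relative deviation 5.2e-13% among genes with at least 100 counts). Gene identifiers and coordinates come from the deposited tables. A count of 0 allows up to 3 counts, 0.173 to 0.18 CPM at ZT16, for counting error only.

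For the test on counts, R 4.3.3 and edgeR 4.0.16 were used: filterByExpr on the 12 groups, TMM, a robust quasi-likelihood fit of 12 group means over all 48 libraries, F tests, and Benjamini-Hochberg adjustment over all 14555 genes at 0.05. Log2 differences are phase shift minus control, and "nominal" means an unadjusted p under 0.05. CPM are scaled by TMM. The procedure was tested on simulated data. Alternatives used limma 3.58.1, DESeq2 1.42.0, other filters, fits and units, and libraries left out. The rule for named genes took up to 12 higher and 12 lower protein coding genes, filled, as none was called, with those of smallest p, a mean log2 CPM of at least 1 and no overlap between arms; the 5 smallest p for ZT16 against the other times; and up to 4 members of each described list with the smallest p plus the one with the highest FPKM. Members, lists and rules were chosen with earlier results of these data known. The serum measurements of the series were not analysed here, and some genes that the rule names are not reported here.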

Additional observations from a re-analysis of the deposited data

Results flagged for a closer look

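In 21 of 266 groups of 4 libraries examined, counting each named gene and 4 library measures in each arm, 1 library lay so far from the other 3 that its gap to the nearest, as a share of the range of the group, exceeded Dixon's critical value for 4 samples. Chance alone gives this in about 1 of 20 groups. In 10 of the 21 that library was phase shift replicate 2. The named genes were compared on CPM without logarithm and were in part chosen from these data, so the shares over all genes are not on the same scale. On log2 CPM, 1 phase shift library stood apart in 868 of the 14555 genes tested. It was replicate 2 in 324 (37.3%), replicate 1 in 296 (34.1%), replicate 4 in 129 (14.9%) and replicate 3 in 119 (13.7%). Of 744 such genes in control, among the same 14555, it was replicate 4 in 262 (35.2%), replicate 1 in 191 (25.7%), replicate 2 in 164 (22.0%) and replicate 3 in 127 (17.1%). Among the named genes, phase shift replicate 2 stood above the other 3 with a gap over range of 0.974 for Mt1, 0.941 for Ppp1r3g, 0.908 for Angptl4, 0.902 for Cry2, 0.895 for Gadd45g, 0.884 for Map3k21 and 0.856 for Fkbp5, and below them with 0.914 for Fasn, 0.839 for Hlf and 0.833 for Tkfc.

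In the other phase shift groups, replicate 3 stood above the rest for Ciart (0.913) and replicate 4 above the rest for Plin3 (0.916). Among control libraries, replicate 4 was apart for Junb (0.897, high), Cpt1a (0.88, low), Ppp1r3c (0.874, high) and Avpr1a (0.84, high). Control replicate 1 was apart for Sqle (0.901, low), Zbtb16 (0.871, high) and Nr3c2 (0.863, high), and control replicate 3 for Hspa5 (0.874, high) and Aacs (0.842, high). The cause of these single deviations was not tested.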

How the results depend on the processing

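The count of 0 genes at ZT16 was also 0 with RLE size factors, DESeq2, limma voom, no filter or a stricter one, the replicate block in all 48 libraries, the mitochondrial share as a covariate, libraries of high mitochondrial share left out, both FPKM pseudocounts, each ZT16 library left out (0 to 0, with 419 to 699 genes at an unadjusted p under 0.05), and 2 libraries left out together (phase shift replicate 2 and control replicate 1, chosen after seeing the data). It was 15 in a fit of the 8 ZT16 libraries and 10 with the replicate block in those 8. The fit of 8 estimates the spread from fewer libraries, and from those at ZT16 alone. Their root mean square deviation from the group mean, on log2 CPM, was 0.293 to 0.388. Over all 48 libraries the median was 0.353 and the highest value 0.813. All alternatives that gave 0 also took the spread from libraries of the other times. Which of these differences sets the 15 apart was not tested. Adjusted p-values of the 15 genes ran up to 1 in the other alternatives. Of the 15, Aqp8, Sucnr1, Avpr1a, Csrnp1 and Ciart were also called by edgeR's test with the replicate block in the 8 libraries (adjusted p 0.034 to 0.043). Same-numbered libraries had deviations that correlated by -0.10 to 0.01 over all genes tested, which gave no sign of a pairing by number. A pairing that touches only some genes could not be seen in this way. For the ZT16 difference against the other 5 times the count was 9 with DESeq2 and 0 to 1 with a library left out (1 without phase shift replicate 3), and 0 otherwise; the cause was not tested.

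Among 127 genes and 21 alternatives, 2630 of 2663 values kept their sign and 22 passed the threshold, in the 2 fits of 8 libraries. The 33 reversals belong to 13 genes. With any single ZT16 library left out, or phase shift replicate 2 and control replicate 1 together, the log2 difference ran from -0.238 to 0.182 for Rora, -0.131 to 0.0929 for Per2, -0.0926 to 0.276 for Cry1, -0.12 to 0.0651 for Per3, -0.557 to 0.0728 for Nfil3, -0.0354 to 0.256 for Tat, -0.277 to 0.0244 for Fabp1, -0.406 to 2.05 for Mt1, -0.186 to 0.318 for Hspa5, -0.192 to 0.0025 for Hspa8, -0.0768 to 0.0473 for Pemt, -0.283 to 0.371 for Srebf1 and -0.126 to 0.433 for G6pc. Without those 2 it was 0.0605 for Per2 and 0.0549 for Per3. With the mitochondrial covariate it was 0.0001 for Per3 and 0.0115 for Pemt, and for Hspa5 it was -0.0038 with limma voom, -0.003 with FPKM and a pseudocount of 0.1 and -0.0026 with a pseudocount of 1. No scaling moved the median of all genes by over 0.1. With 4 libraries per arm, differences within the spread were not detectable, and genes near 0.173 CPM rest on few counts.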
